A study of Arabidopsis thaliana with 4 samples.

Results

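The comparison described here sets sfr6-2 seedlings against the wild-type Col-0 seedlings treated beside them in the cold. Its members are the genes that a probe set on the array pairs with alone and whose mean log2 value over the 4 arrays of the study was at least 6.46, the level at the 40th percentile of all probe sets other than controls. This rule kept 7280 of 22746 non-control probe sets, and they stood for 7204 of the 13355 genes with such a probe set. At the edge of the rule, AT1G33660 (mean 6.46, log2 ratio 0.16) was the dimmest gene kept. AT2G31725 (mean 6.45, log2 ratio 1.44) was the brightest gene left out.

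The study has 4 groups of 1 array each, all from Arabidopsis thaliana seedlings aged 7 days that had been moved from 20 °C to 5 °C for 6 h in the light. sfr6-2 is the insertion line SALK_048091, and its Col-0 seedlings were the control of the same experiment. sfr6-3 is the insertion line WiscDsLox504A08, with a Col-0 control of its own. Both mutants carry the disruption in the whole plant, no array came from warm-grown seedlings, and every value below is a deposited log2 expression value from 1 biotin-labelled, single-colour Affymetrix array.

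SFR6, also called MED16, is a subunit of Mediator, the protein complex through which DNA-bound transcription factors reach RNA polymerase II. Plants lacking it are known for poor survival of freezing after cold acclimation. In the cold, CBF transcription factors switch on COR genes, whose products include dehydrins and chloroplast proteins that protect membranes and enzymes from loss of water. SFR6 has also been linked to defence genes that respond to jasmonate and salicylate and to the response to iron shortage. The comparison asks which transcripts differ at 5 °C when SFR6 is disrupted. It cannot tell a weaker response to cold from a level that was already lower before the cold, and in whole seedlings fewer cells of a type and less RNA per cell cannot be told apart.

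With 1 array a side the comparison has no replicate check, so ratios are given as values and no test was run. The annotation used pairs 0 single-gene probe sets with SFR6 or with CBF1, CBF2 or CBF3, so SFR6 transcript could not serve as a check of the genotype label. Of the 7204 genes, 1156 carry a name in the tables used and 6048 are known by locus alone. The gene lists below were written from gene names, so family members known by locus alone can be missing from them. Counts and medians of a list cover its listed genes only. The Col-0 array from the sfr6-2 experiment differed at least 2-fold from the one in the sfr6-3 experiment at many genes, with 404 lower and 339 higher. The log2 ratios between the Col-0 arrays had an SD over genes of 0.67, and those of sfr6-2 minus its own Col-0 had an SD of 0.53. Ratios set each mutant against the control of its own experiment, except where the other Col-0 array is named as the control. The 2 pairs share no array. Leaf markers were at similar levels, with a summed log2 level of 16.90 in sfr6-2 and 17.01 in its Col-0 over the 7 of 22 that were measured. The 2 of 9 root markers measured, EXPA7 and EXPA18, summed to 8.14 in sfr6-2 and 8.82 in its Col-0. Of 16 seed markers, 2 had a probe set: OLEO3 read 5.47 in sfr6-2 and 5.83 in its Col-0, under the filter, and M17 is described below. Of the stem cell and flower markers, 0 of 4 had one.

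At the 2-fold threshold more genes were lower in sfr6-2 than higher. By at least 2-fold, 258 genes (3.58% of those analysed) were lower and 120 (1.67%) were higher. By at least 4-fold, 53 were lower and 8 higher. This balance depends on the threshold and the filter: at 1.5-fold 609 genes were lower and 666 higher, and with no filter on dim genes 1434 were at least 2-fold lower and 1701 at least 2-fold higher. Small ratios lay more often above 0, with 3007 of all 7204 below it and 4197 above. Most genes differed little: 5535 of 7204 had a log2 ratio within 0.5 of 0, the median ratio was 0.08, and 90 in 100 ratios lay between -0.83 and 0.72. The 258 lower genes had a median log2 value of 7.98 in sfr6-2 and 9.62 in Col-0, and the 120 higher genes a median of 8.12 in sfr6-2 and 6.82 in Col-0, beside 8.53 in sfr6-2 and 8.50 in Col-0 over all genes. Selection by the ratio itself sets these medians apart in part.

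**Figure D1:**
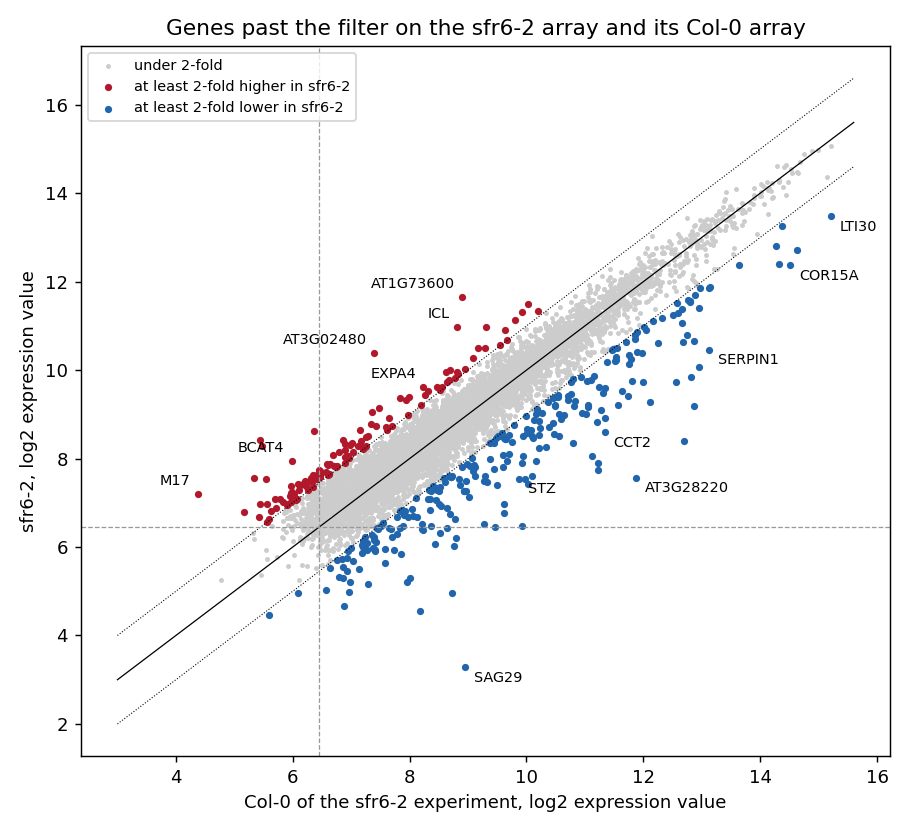
Log2 expression values of the 7204 genes on the sfr6-2 array (vertical axis) and on its Col-0 array (horizontal axis). The solid line marks equal values, the dotted lines 2-fold and the dashed lines the filter level of 6.46; the 258 lower genes (blue) run up to the brightest values, and the 120 higher genes (red) have a median Col-0 value of 6.82, with 45 of them left of the filter line.

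At 2-fold, lower genes outnumbered higher ones most among bright genes. Ordered by mean level, the dimmest 1801 genes held 69 lower and 64 higher genes. The next 1801 held 45 lower and 25 higher, and the 1801 after those held 55 lower and 22 higher. Among the brightest 1801 genes, 89 were lower and 9 were higher. A Col-0 value under the filter level lay behind 45 of the 120 higher genes, and an sfr6-2 value under it behind 57 of the 258 lower genes. Over all 7204 genes, 255 had such a Col-0 value and 206 such an sfr6-2 value. A ratio against such a dim value is inexact, and with these values raised to the filter level 222 genes were lower and 90 higher.

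**Figure D2:**
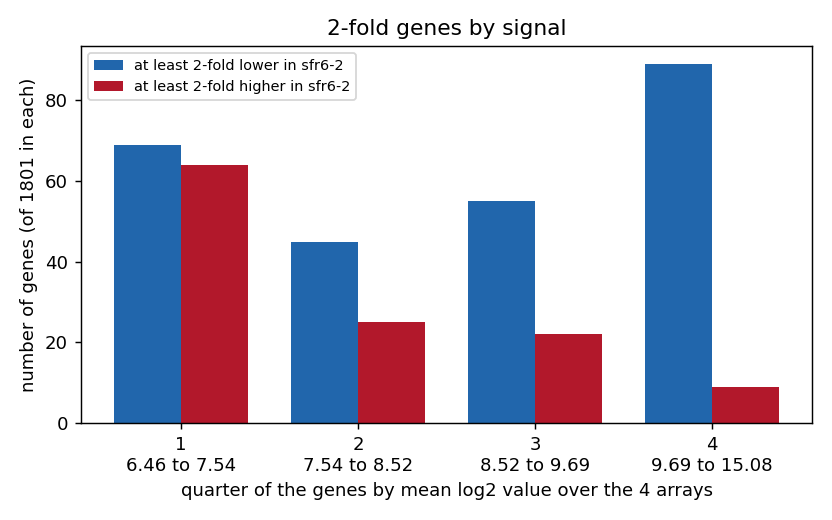
Number of genes at least 2-fold lower (blue) and at least 2-fold higher (red) in sfr6-2 than in its Col-0, in 4 equal groups of 1801 genes ordered by mean log2 value over the 4 arrays. Lower genes are 69, 45, 55 and 89 from dim to bright, and higher genes are 64, 25, 22 and 9.

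The sfr6-3 pair, measured on separate arrays, gives each of these genes a second value. In sfr6-3, 277 genes (3.85%) were at least 2-fold lower and 270 (3.75%) at least 2-fold higher than in its own Col-0. Of the 258 genes lower in sfr6-2, 227 had a ratio below 0 in sfr6-3, where 41.0% of all 7204 genes did, and 115 were also at least 2-fold lower there. Of the 120 genes higher in sfr6-2, 88 had a ratio above 0 in sfr6-3, where 59.0% of all genes did, and 21 were also at least 2-fold higher there. The median sfr6-3 ratio was -0.88 over the lower genes and 0.43 over the higher ones. At least 2-fold in opposite directions in the 2 mutants were 7 genes, or 4 with dim values raised. Of these, AT3G50640, AT5G62340 and AT3G10530 were lower in sfr6-2, and AT3G16670, AT1G04770, BCAT4 and M17 were higher in it.

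**Figure D3:**
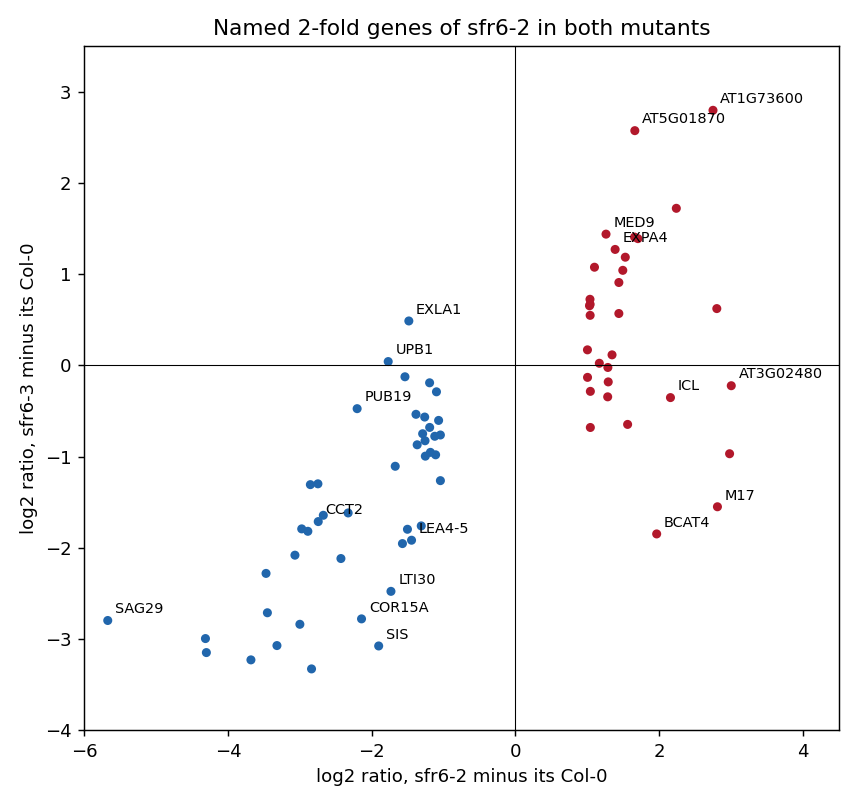
Log2 ratio in sfr6-2 (horizontal axis) and in sfr6-3 (vertical axis), each against its own Col-0 array, for the named genes at least 2-fold lower (blue) or higher (red) in sfr6-2. Nearly all plotted lower genes lie below 0 on both axes, with EXLA1 at 0.49 and UPB1 at 0.04 in sfr6-3 as exceptions, while several higher genes, such as ICL, BCAT4 and M17, lie below 0 in sfr6-3.

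Genes for proteins that protect cells during dehydration and freezing were among the most abundant transcripts that were lower in sfr6-2. The list held 12 measured dehydrins, other late embryogenesis abundant (LEA) proteins, cold-regulated chloroplast proteins and a stress lipocalin. Of these, 4 were at least 2-fold lower and 2 at least 2-fold higher, where 3.58% and 1.67% of all genes were. Their median ratio was -0.83, against 0.08 over all genes. COR15A, a chloroplast protein that stabilises membranes during freezing, read 12.37 in sfr6-2 and 14.51 in its Col-0, and 11.21 in sfr6-3 and 13.99 in its Col-0. Both mutant arrays lay below both Col-0 arrays, and the log2 ratio was -2.14 in sfr6-2 and -2.78 in sfr6-3. LTI30, a dehydrin that binds membranes, read 13.48 in sfr6-2 and 15.21 in its Col-0, and 12.33 in sfr6-3 and 14.80 in its Col-0. Here too the mutants lay below both controls, at a ratio of -1.73 in sfr6-2, although LTI30 remained one of the bright signals on the mutant array. TIL, a lipocalin that protects membranes in heat and cold, read 12.38 in sfr6-2 and 13.64 in its Col-0, a ratio of -1.26, against -0.57 in sfr6-3.

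LEA4-5, a hydrophilic protein that accumulates under water deficit, read 8.50 in sfr6-2 and 9.95 in its Col-0, and 6.31 in sfr6-3 and 8.23 in its Col-0. It was lower within each pair, at -1.44 and -1.92, but the sfr6-2 value lay above the other experiment's Col-0 value. Other genes of the group were under 2-fold. COR15B, the close paralogue of COR15A, stood at -0.97, the dehydrin HIRD11 (AT1G54410) at -0.88 and the dehydrin COR47 at -0.78. COR47 was very bright in every array, at 14.36 in sfr6-2 and 15.14 in its Col-0, and 14.13 in sfr6-3 and 14.80 in its Col-0. The 2 Arabidopsis proteins listed here by locus among the LEA genes, AT2G46140 and AT2G44060, stood at -0.22 and 0.64.

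The 2 listed LEA genes at least 2-fold higher in sfr6-2 were at low levels, and LEA genes known by locus alone can be missing from the list. AtLEA4-1 read 7.88 in sfr6-2 and 6.59 in its Col-0, and 5.99 in sfr6-3 and 6.34 in its Col-0, both under the filter level. LEA18 was 0.94 higher in sfr6-2 and lower in sfr6-3, at -0.64. M17, which is also one of the seed markers, read 7.19 in sfr6-2 and 4.38 in its Col-0, and 6.78 in sfr6-3 and 8.33 in its Col-0. The mutant arrays differed little for M17, while the Col-0 arrays differed by -3.95. Its ratios were 2.81 in sfr6-2 and -1.55 in sfr6-3, and with 1 array each, genotype, experiment and array cannot be told apart. Once dim values had been raised, the sfr6-2 ratio of M17 was 0.73.

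**Figure D4:**
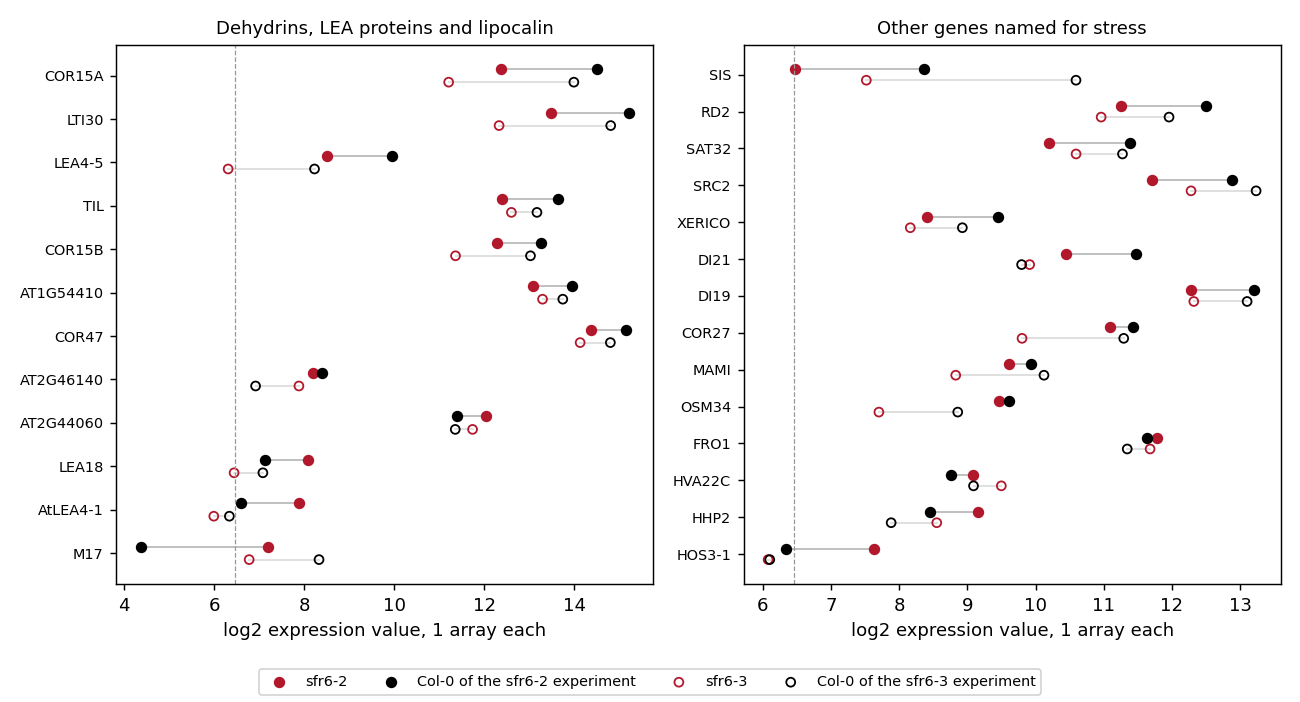
Log2 values on each of the 4 arrays for the protective genes (left) and other genes named for stress (right), filled for the sfr6-2 experiment and open for the sfr6-3 experiment, with mutants in red, Col-0 in black and the filter level of 6.46 dashed. COR15A and LTI30 show both mutants below both controls, while the genes at the foot of each panel, such as M17 at 7.19 in sfr6-2 and 4.38 in its Col-0, run the other way in sfr6-2.

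Genes named for salt, drought, cold or osmotic stress outside the LEA families also included several lower genes. Of 14 measured, 6 were at least 2-fold lower and 1 at least 2-fold higher, where 3.58% and 1.67% of all genes were, with a median of -0.63. SIS, a salt-induced serine-rich protein, read 6.47 in sfr6-2 and 8.37 in its Col-0, and 7.52 in sfr6-3 and 10.59 in its Col-0. The ratio was -1.90 in sfr6-2 and -3.08 in sfr6-3, and both mutants lay below both controls even though the controls differed by -2.22. RD2, a gene responsive to desiccation, read 11.25 in sfr6-2 and 12.50 in its Col-0, a ratio of -1.25. SAT32, named for salt tolerance, read 10.19 in sfr6-2 and 11.39 in its Col-0, a ratio of -1.19. SRC2, which carries a C2 domain and is named after a cold-regulated soybean gene, read 11.70 in sfr6-2 and 12.88 in its Col-0, a ratio of -1.18. All 3 were lower in sfr6-3 as well, with RD2 at 10.96 in sfr6-3 and 11.96 in its Col-0, and with ratios of -0.68 for SAT32 and -0.95 for SRC2.

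XERICO, a RING ubiquitin ligase that raises abscisic acid levels, read 8.40 in sfr6-2 and 9.45 in its Col-0, a ratio of -1.04, and -0.76 in sfr6-3. DI21, named for induction by drought, was at -1.02 in sfr6-2 and 0.12 in sfr6-3. DI19, a zinc-finger protein of drought and light responses, stood at -0.92 in sfr6-2 and -0.78 in sfr6-3. COR27, a cold-regulated gene that feeds into the clock, differed less in sfr6-2, where its ratio was -0.34, than in sfr6-3, where it was -1.49, and this difference was not tested. Near 0 or above it were FRO1 at 0.14, HVA22C at 0.32 and HHP2 at 0.70. HOS3-1, a fatty acid elongase first found through osmotic stress signalling, read 7.63 in sfr6-2 and 6.34 in its Col-0. Its ratio was 1.29, with -0.02 in sfr6-3.

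A few transcription factors were far lower in sfr6-2, within a large class that centred near 0. Of 73 measured transcription factors and partners, 5 were at least 2-fold lower and 2 higher, beside 3.58% and 1.67% of all genes, and the median was -0.06. TINY (tny), an AP2/ERF factor of the family that includes the CBFs, read 7.55 in sfr6-2 and 9.97 in its Col-0, and 6.71 in sfr6-3 and 8.83 in its Col-0. Both mutants lay below both controls, with ratios of -2.43 and -2.12. STZ, also called ZAT10, a zinc-finger repressor induced by cold, salt and drought, read 7.54 in sfr6-2 and 9.87 in its Col-0, and 8.75 in sfr6-3 and 10.37 in its Col-0. Its ratio was -2.33 in sfr6-2 and -1.62 in sfr6-3, again with no mutant value above a control value.

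Other factors lower in sfr6-2 differed less in sfr6-3, which was not tested. MYBC1, a MYB factor known as a negative regulator of freezing tolerance, read 6.96 in sfr6-2 and 8.50 in its Col-0, and 7.64 in sfr6-3 and 7.77 in its Col-0. UPB1, a bHLH factor that sets the balance of reactive oxygen species at the root tip, read 5.21 in sfr6-2 and 6.98 in its Col-0, and 6.91 in sfr6-3 and 6.87 in its Col-0. The sfr6-2 reading of UPB1 stands apart from the other arrays and is dim, and its ratio of -1.77 became -0.52 with dim values raised. SNZ, an AP2 factor that represses flowering, was at -1.10 in sfr6-2 and -0.70 in sfr6-3. Higher in sfr6-2 were ALC, a bHLH factor of fruit opening, at 1.04, and ARR15, a response regulator that dampens cytokinin signalling, at 1.05. ARR15 was at -0.29 in sfr6-3.

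Genes of defence against microbes and grazers included several abundant transcripts that were lower. Of 20 measured, 5 were at least 2-fold lower and 1 higher, against shares of 3.58% and 1.67% over all genes, with a median of -0.15. SERPIN1, an inhibitor of cysteine proteases, read 10.46 in sfr6-2 and 13.13 in its Col-0, and 9.92 in sfr6-3 and 11.56 in its Col-0. It was lower within each pair, at -2.67 in sfr6-2 and -1.64 in sfr6-3. PDF1.2, a defensin widely used as a marker of jasmonate and ethylene signalling, read 6.29 in sfr6-2 and 7.79 in its Col-0, and 5.98 in sfr6-3 and 7.77 in its Col-0. The ratios were -1.50 and -1.80, from mutant values under the filter level, and the probe set may also report near-identical defensin genes.

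THI2.2, a thionin, read 11.86 in sfr6-2 and 13.12 in its Col-0, a ratio of -1.26, against -0.83 in sfr6-3. ECS1, a cell wall protein linked to resistance to bacteria, read 11.85 in sfr6-2 and 12.97 in its Col-0, a ratio of -1.12, against -0.78 in sfr6-3. The jacalin-related lectin JAL33 read 11.52 in sfr6-2 and 12.57 in its Col-0, a ratio of -1.06, against -1.67 in sfr6-3. These 3 were lower in both pairs. The related lectins JAL34 and JAL22 were at 0.03 and 0.43, and the defensins PDF2.5 and PDF2.1 were at 0.11 and 0.43, so neither family was low as a whole. UGT76B1, a glucosyltransferase that inactivates salicylate and isoleucic acid, went the other way. It read 9.37 in sfr6-2 and 7.84 in its Col-0, and 9.02 in sfr6-3 and 7.83 in its Col-0, with ratios of 1.53 and 1.18.

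Transporters held the gene with the lowest ratio as deposited. SAG29, also called SWEET15, a sucrose exporter named for its rise in senescing leaves, read 3.28 in sfr6-2 and 8.96 in its Col-0, and 7.14 in sfr6-3 and 9.94 in its Col-0. The ratio of -5.67 rests on a very dim sfr6-2 value and was -2.50 with that value raised to the filter level, beside -2.80 in sfr6-3. With dim values raised it was no longer the lowest, with CCT2 and SERPIN1 among the genes below it. The other 9 sugar transporters measured were all under 2-fold, with SWEET11 the lowest of them at -0.51 and TMT1, a vacuolar sugar importer, the highest at 0.18. The list's median was -0.26, and 8 of 10 ratios were below 0, where 41.7% of all genes were. At least 2-fold lower was 1 of the 10, beside 3.58% of all genes.

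The NPF family carries nitrate, peptides, hormones and glucosinolates, and members known by locus alone can be missing from its list. All 6 listed and measured members were below 0 in sfr6-2, where 41.7% of all genes were. At least 2-fold lower were 3 of the 6, beside 3.58% of all genes, and the median was -0.72. NPF3.1 (AT1G68570), a transporter of gibberellin and nitrate, read 9.87 in sfr6-2 and 11.16 in its Col-0, and 10.58 in sfr6-3 and 11.33 in its Col-0. NPF6.2 (AT2G26690) read 10.64 in sfr6-2 and 11.71 in its Col-0, and 11.24 in sfr6-3 and 11.84 in its Col-0. GTR1, a glucosinolate importer, read 9.09 in sfr6-2 and 10.18 in its Col-0, and 10.06 in sfr6-3 and 10.35 in its Col-0. In each case both mutant arrays were below both Col-0 arrays, and the ratios in sfr6-2, at -1.29, -1.07 and -1.10, were the larger ones. In sfr6-3, 0 of the 6 reached 2-fold, and the median was -0.45. GTR2, the partner of GTR1, was at -0.30 in sfr6-2.

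Among 5 glucosinolate genes, BCAT4, which starts the lengthening of the methionine side chain, was the highest. It read 7.95 in sfr6-2 and 5.98 in its Col-0, and 7.72 in sfr6-3 and 9.57 in its Col-0. The mutants were nearly level, and the Col-0 arrays differed by -3.59. The ratios were 1.97 in sfr6-2 and -1.85 in sfr6-3, and what set them apart was not tested. AOP1 at 0.71 and UGT74B1, which glucosylates the thiohydroximate core, at 0.70 were under 2-fold.

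In lipid metabolism the listed genes at 2-fold lay on both sides. CCT2, an enzyme that makes the activated choline for phosphatidylcholine, read 8.59 in sfr6-2 and 11.34 in its Col-0, and 8.93 in sfr6-3 and 10.64 in its Col-0. Its ratio was -2.74 in sfr6-2 and -1.71 in sfr6-3. Among the 12 listed genes of phospholipid, sphingolipid and sterol synthesis, from which genes known by locus alone can be missing, only CCT2 passed 2-fold. With 3.58% of all genes lower, a single gene in so short a list is no result about it. CCT1, its paralogue, was at 0.20, and PMEAMT, which methylates phosphoethanolamine toward choline, was at 0.84. The 15 listed fatty acid, wax and storage-lipid genes had a median of 0.16. Of them, 0 were lower and 2 were higher, beside 3.58% and 1.67% of all genes. One was HOS3-1, and the other was ICL, isocitrate lyase, the glyoxylate cycle enzyme by which seedlings turn stored oil into sugar. ICL read 10.97 in sfr6-2 and 8.81 in its Col-0, and 8.80 in sfr6-3 and 9.16 in its Col-0. The sfr6-2 reading stands above all the other arrays, at a ratio of 2.16, against -0.35 in sfr6-3. SDP1, a lipase that opens the breakdown of seed oil, was at 0.21, and AIM1, an enzyme of beta-oxidation, was at 0.05. The 2 measured seed markers, of 16, summed to 7.57 in sfr6-2 and 6.28 in its Col-0, with OLEO3 lower in sfr6-2 and M17 higher. They are too few to stand for seed genes, some of which can be known here by locus alone. The part of seed transcripts in the ICL ratio was not tested.

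Amino acid and nucleotide metabolism had single genes on both sides. MGL, which splits methionine, read 7.59 in sfr6-2 and 8.70 in its Col-0, a ratio of -1.11, against -0.98 in sfr6-3. MCCB, a subunit of the leucine-degrading enzyme methylcrotonyl-CoA carboxylase, read 9.83 in sfr6-2 and 8.78 in its Col-0, and 9.03 in sfr6-3 and 9.71 in its Col-0. Its partner subunit MCCA had a ratio of -0.55 in sfr6-2, against 1.05 for MCCB, so the subunits stood on opposite sides of 0. In sfr6-3 they were at -2.18 for MCCA and -0.68 for MCCB. ASPGB1, an asparaginase, was at 1.01, and UPP, which salvages uracil, was at 1.01, in sfr6-2, and both were near 0 in sfr6-3, at -0.13 and 0.17. Over the 17 catabolic genes, 1 was lower and 2 were higher, beside 3.58% and 1.67% of all genes, and the median was 0.15.

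Cell wall genes differed within families. Of 11 expansins and expansin-like genes, 2 were lower and 2 higher, beside 3.58% and 1.67% of all genes. EXLA2 read 8.71 in sfr6-2 and 10.38 in its Col-0, and 9.41 in sfr6-3 and 10.52 in its Col-0, and was lower in both pairs, at -1.67 and -1.11. EXLA1 read 10.42 in sfr6-2 and 11.90 in its Col-0, and 13.09 in sfr6-3 and 12.61 in its Col-0, so that it was lower in sfr6-2 and a little higher in sfr6-3. EXPA4, an expansin that loosens growing walls, read 9.63 in sfr6-2 and 8.24 in its Col-0, and 9.44 in sfr6-3 and 8.17 in its Col-0. Both mutants lay above both controls, with ratios of 1.39 and 1.27. EXPA15 was at 1.17 in sfr6-2 and 0.02 in sfr6-3. The root hair expansins EXPA7 and EXPA18, also the measured root markers, were at -0.76 and -0.59, and the part of unequal root content in the ratios of other genes was not tested.

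Of 10 beta-glucosidases, BGLU46, which releases lignin monomers from their glucosides, read 5.21 in sfr6-2 and 7.96 in its Col-0, and 7.59 in sfr6-3 and 8.89 in its Col-0. The ratio was -2.75, or -1.50 with the dim sfr6-2 value raised. BGLU25 read 8.85 in sfr6-2 and 10.21 in its Col-0, and 7.88 in sfr6-3 and 8.75 in its Col-0, so its sfr6-2 value was level with the control of the other experiment. PRX71 (AT5G64120), a cell wall peroxidase, read 9.45 in sfr6-2 and 10.76 in its Col-0, a ratio of -1.31, against -1.76 in sfr6-3, and was the only one of 27 redox genes at 2-fold. GALT29A (AT1G08280), a galactosyltransferase of arabinogalactans, was the one 2-fold gene of 23 in wall synthesis, at 8.78 in sfr6-2 and 7.34 in its Col-0. GALT29A was also higher in sfr6-3, at 0.91. Over all genes, 3.58% were lower and 1.67% higher, so a single 2-fold gene in lists of this size is no result about the list. The 7 measured xyloglucan endotransglucosylase/hydrolases, which cut and rejoin xyloglucan, had 0 members at 2-fold in sfr6-2 and a median of -0.18. In sfr6-3, 3 of the 7 were at least 2-fold higher, where 3.75% of all genes were. XTH19 was at -0.18 in sfr6-2 and 2.06 in sfr6-3, and the difference was not tested. The 18 TRICHOME BIREFRINGENCE-like genes, which acetylate wall polymers, had 0 at 2-fold, between -0.85 for TRICHOME BIREFRINGENCE itself (AT5G06700) and 0.94 for TBL45.

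Of 32 listed UDP-glycosyltransferases, which attach sugars to hormones and secondary metabolites, 1 was lower and 2 were higher, with a median of 0.16. Over all genes, 3.58% were lower and 1.67% higher. The count of lower genes is near that share and is no result about the family. Members known by locus alone can be missing from this list. UGT72B3 read 8.52 in sfr6-2 and 10.09 in its Col-0, and 7.78 in sfr6-3 and 9.74 in its Col-0. UGT78D1, which adds rhamnose to flavonols, read 9.78 in sfr6-2 and 8.68 in its Col-0, and 10.02 in sfr6-3 and 8.95 in its Col-0. Each differed in the same direction in both pairs, at -1.57 and -1.95 for UGT72B3, and 2.15-fold higher in sfr6-2 with a log2 ratio of 1.07 in sfr6-3 for UGT78D1. Of 8 glutathione S-transferases, which couple toxins to glutathione, GSTU20 was higher, at 10.51 in sfr6-2 and 9.16 in its Col-0, with 0.11 in sfr6-3. CYP71B29, the one 2-fold gene of 7 in its cytochrome P450 subfamily, was at 1.29 in sfr6-2 and -0.18 in sfr6-3.

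In the lists for protein turnover and signalling, 1 or 2 members each were at 2-fold, among small numbers of genes measured. Over all genes, 3.58% were lower and 1.67% higher, so these counts are no result about the lists. PUB19, a U-box ubiquitin ligase that restrains drought responses, read 6.31 in sfr6-2 and 8.51 in its Col-0, and 6.81 in sfr6-3 and 7.28 in its Col-0. It and XERICO were the lower ones of 16 listed ubiquitin ligases, where 3.58% of all genes were lower. PUB22 and PUB23, related ligases of drought and immune signalling, were under 2-fold at -0.79 and -0.70. ETP2, an F-box protein that marks the ethylene signal protein EIN2 for destruction, was at 1.03, and the ethylene factor EIN3 was at -0.10. Gibberellin receptors ran from -0.94 for GID1B and -0.44 for GID1A to 0.51 for GID1C. Among 20 signalling peptides and receptor kinases, EMS1, a receptor kinase of anther development, was at -1.19, or -0.48 with dim values raised. The subtilase ATSBT5.2 was at -1.04 and the carboxypeptidase-like SCPL34 at 1.04, of 21 proteases. TET10, of the tetraspanin family of membrane proteins, was at 1.44, and TKL, of the clock and light-timing genes, at 1.04.

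Of 15 subunits of RNA polymerases and Mediator, MED9, a subunit of the Mediator middle module, was the one 2-fold gene. MED9 read 7.23 in sfr6-2 and 5.97 in its Col-0, and 7.30 in sfr6-3 and 5.86 in its Col-0. The mutants lay above the controls, at 1.26 and 1.44, but both controls were under the filter level, and the sfr6-2 ratio was 0.77 with dim values raised. The other Mediator subunits named in the list were closer to 0, with MED6 at 0.32, MED19A at 0.00 and MED31 at -0.16. HIS1-3, a linker histone induced by drought, read 5.99 in sfr6-2 and 7.37 in its Col-0, and was the one 2-fold gene of 20 for histones and chromatin remodellers. Its ratio was -1.38, or -0.91 with dim values raised, against -0.54 in sfr6-3. With 3.58% of all genes lower and 1.67% higher, the single 2-fold genes of these lists are no result about the lists.

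Lists for basic cell functions held 0 genes at 2-fold. With 3.58% of all genes lower and 1.67% higher, the short lists among them would hold few such genes in any case, so their zeros are not a result about them. The list of genes encoded in the chloroplast is longer, and its 0 was not tested. Genes encoded in the chloroplast numbered 68, with 0 at 2-fold in sfr6-2 and a median of -0.07, and they ran from -0.92 for psbE to 0.83 for ycf3. In sfr6-3, 8 of the 68 were at least 2-fold lower, where 3.85% of all genes were, and the median was -0.37. This difference between the mutants was not tested. The 22 nuclear photosynthesis genes had 0 at 2-fold and a median of -0.13, with NdhS, of the chloroplast NDH complex, the lowest at -0.86. Tetrapyrrole and chlorophyll synthesis had 9 of 12 ratios above 0, where 58.3% of all genes were, and a median of 0.32. HEME1 at 0.74 and HEMB1 at 0.69 were its highest members, again with 0 at 2-fold. Likewise 0 members reached 2-fold among 31 cytoskeleton genes, 31 genes of vesicle traffic, 22 chaperones and quality-control genes, 23 ubiquitin-conjugating enzymes and ubiquitin proteases, 21 genes of RNA processing, 15 calcium signalling genes, 11 autophagy genes, 8 aldehyde dehydrogenases and 5 family 9 endoglucanases. The lowest or highest of these were IQD23 at -0.97, GH9C1 at -0.95, ATG8H at -0.75 and ACT11 at 0.84. The 8 measured members of the list of iron regulators and coumarin synthesis were likewise under 2-fold, between 0.01 and 0.90. Iron-response genes known by locus alone can be missing from this list, so it does not stand for the whole iron response. F6'H1 (AT3G13610), which makes the coumarins released under iron shortage, was the highest at 0.90, with 0.84 in sfr6-3, and the iron regulator PYE was at 0.33.

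**Figure D5:**
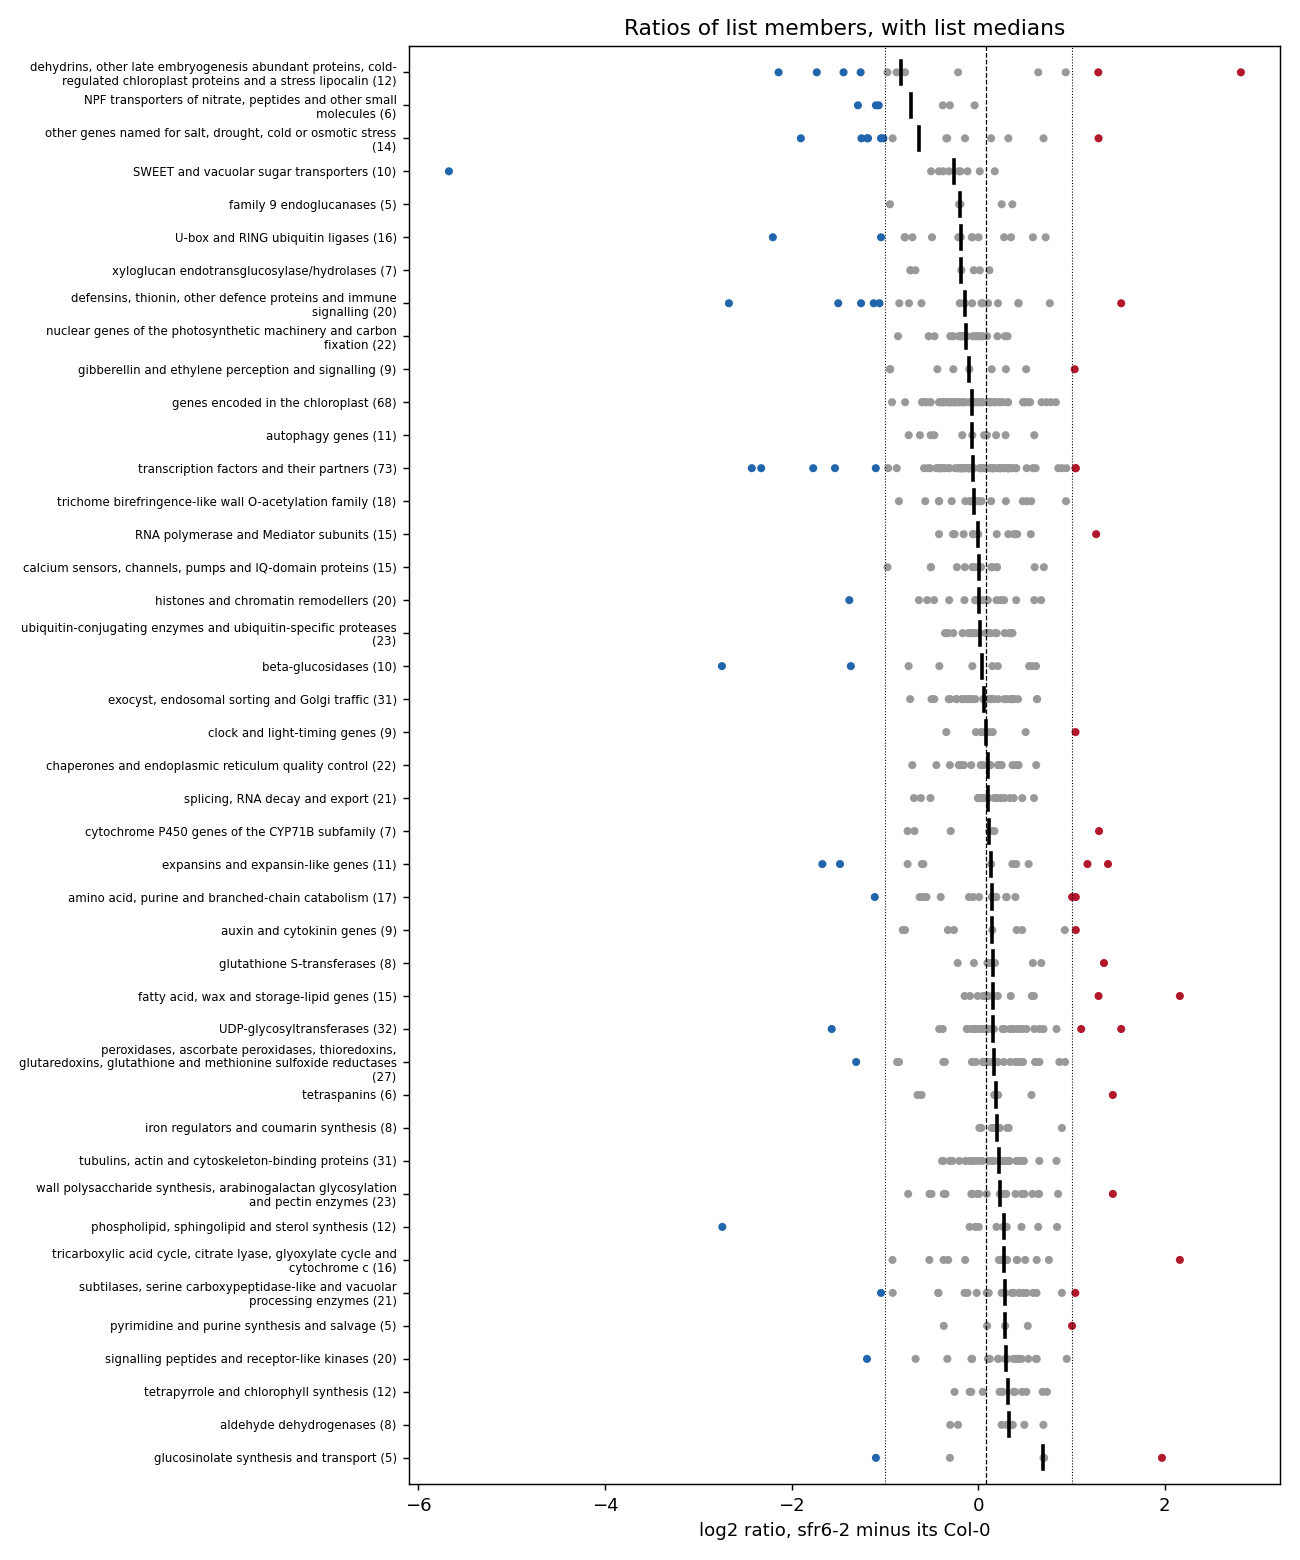
Log2 ratio of sfr6-2 minus its Col-0 for each measured member of the gene lists with 3 or more members (numbers in brackets), in blue and red past 2-fold, with a black bar at each list's median and a dashed line at the all-gene median of 0.08. The lists with the lowest medians are the protective genes at -0.83, the NPF transporters at -0.72 and the other stress genes at -0.63, and most lists centre near the dashed line.

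The genes with the lowest ratios after dim values had been raised were known by locus alone in the tables used, so that their roles are not given here. AT3G28220 read 7.57 in sfr6-2 and 11.88 in its Col-0, and 9.82 in sfr6-3 and 12.81 in its Col-0. AT1G48100 read 8.40 in sfr6-2 and 12.70 in its Col-0, and 7.94 in sfr6-3 and 11.09 in its Col-0. AT1G68500 read 9.18 in sfr6-2 and 12.86 in its Col-0, and 8.51 in sfr6-3 and 11.74 in its Col-0. For each of these, both mutant arrays lay far below both controls, and the sfr6-2 ratios were -4.31, -4.30 and -3.68. The next were AT3G17130 at -3.47, AT5G13200 at -3.45, AT1G16850 at -3.32 and AT1G21790 at -3.07. AT1G67865 read 6.46 in sfr6-2 and 9.46 in its Col-0. Then came AT1G62510 at -2.97, AT5G24570 at -2.89, AT5G17850 at -2.85 and AT1G79660 at -2.84. All 12 were at least 2-fold lower in sfr6-3 too, between -1.31 and -3.33.

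At the other end, AT3G02480 read 10.40 in sfr6-2 and 7.39 in its Col-0, and 8.12 in sfr6-3 and 8.34 in its Col-0. AT1G73600 read 11.65 in sfr6-2 and 8.90 in its Col-0, and 11.91 in sfr6-3 and 9.12 in its Col-0. These genes contrast: AT1G73600 was higher in both mutants, at 2.75 and 2.79, and AT3G02480 was at 3.01 in sfr6-2 and -0.22 in sfr6-3. These differences between the mutants were not tested. Higher in both pairs were also AT3G15650 at 2.24 in sfr6-2, AT1G47400 at 1.71, AT5G01870 at 1.66 and AT4G19380 at 1.66, and AT2G36970, which read 8.65 in sfr6-2 and 7.15 in its Col-0. AT3G01570 was at 2.81 in sfr6-2 and 0.62 in sfr6-3, and AT1G04560 was at 2.98 and -0.97. AT3G27540 was at 1.56 and -0.65. For AT3G01570 and AT1G04560 the Col-0 values of 5.47 and 5.44 were dim, and the ratios were 1.82 and 1.97 with dim values raised. AT3G15650 had dim values in both Col-0 arrays, at 6.37 in the sfr6-2 experiment and 5.36 in the sfr6-3 experiment. With these raised, its ratio was 2.16 in sfr6-2 and 0.63 in sfr6-3.

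Among 2107 pairs of measured neighbours in the TAIR10.1 gene table, a few had both genes at 2-fold, and they are given here. Over all genes, 3.58% were lower and 1.67% higher, so some such pairs would arise in any case. Whether there were more than that was not tested. AT1G16840, AT1G16850 and AT1G16860 form a run, at -2.05, -3.32 and -1.16 in sfr6-2 and at -1.81, -3.07 and -0.42 in sfr6-3. AT1G76580 and AT1G76590 were at -1.67 and -2.19, with -1.04 and -2.71 in sfr6-3. AT5G62340, AT5G62350 and AT5G62360 were at -1.10, -1.46 and -1.91 in sfr6-2, with 1.46, -1.06 and -3.11 in sfr6-3, so that the first of the run differed in direction. AT2G04795 and AT2G04800 were at -1.06 and -1.13. In 4 pairs the neighbours were on opposite sides, with AT1G66090 at 1.63 beside AT1G66100 at -1.07, AT2G20550 at -1.47 beside AT2G20560 at 1.42, AT2G41250 at -1.06 beside M17, and AT3G01560 at -1.13 beside AT3G01570. Around the SFR6 locus itself, 22 genes were measured within 60 genes on either side. Of these, AT4G05070 alone was at 2-fold, at -1.14 in sfr6-2 and -0.91 in sfr6-3. That is near the shares of 3.58% lower and 1.67% higher over all genes, and is no result about the neighbourhood. By chromosome, lower genes made up 78 of 1855 measured genes on chromosome 1 and 56 of 1714 on chromosome 5, the largest and smallest shares of the nuclear chromosomes.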

How the data were processed

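The authors' deposited values are log2 expression values; per the submitters' processing notes they come from MAS5 as run in affy 1.36.1. Detection calls were not used here. After removal of 64 control probe sets, 13513 had 1 gene in the platform annotation, 503 had several and 8730 were unnamed. Names of 13436 were updated through the gene table of TAIR10.1, and 77 kept the annotation's name. A gene with several probe sets took the one with the highest mean. Ratios are sfr6-2 minus its Col-0, with no further normalization (Python 3.11.15, pandas 2.3.3; limma 3.58.1 in R 4.3.3 for alternatives), and called genes are those at 2-fold; the counting was tested on simulated data. The number of arrays limits precision.

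The members and the 44 gene lists, of 727 genes, were chosen with earlier results of these data known. Lists were written from gene names, because the tables used hold no protein descriptions; ATCRT1 was taken off the chaperone list after its value was seen, since its symbol had been misread as a calreticulin. Named genes are the 12 lowest and 12 highest with dim values raised to 6.46, and per list up to 4 members past 2-fold at each end, or the 2 with the largest ratios where 0 passed. Other list members, the neighbours, the genes opposite in the mutants and those at the filter were named after their values were seen. Alternatives were quantile and cyclic loess normalization, median centring, no filter or one at the 60th percentile, raised dim values, the 20th percentile added before logs, 1.5-fold and 3-fold thresholds, every probe set, and the other Col-0 array as control.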

Additional observations from a re-analysis of the deposited data

Results flagged for a closer look

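For 2 named genes the sfr6-2 pair differed one way and the sfr6-3 pair the opposite way, by at least 2-fold, and the difference was not tested. BCAT4, the aminotransferase of methionine chain lengthening, had a log2 ratio of 1.97 in sfr6-2 and -1.85 in sfr6-3. M17, a late embryogenesis abundant protein, had a log2 ratio of 2.81 in sfr6-2 and -1.55 in sfr6-3. With dim values raised to the filter level, the sfr6-2 ratio of M17 was 0.73, under 2-fold, and that of BCAT4 was 1.49. In both genes the mutant arrays were close to each other, with BCAT4 at 7.95 in sfr6-2 and 7.72 in sfr6-3 and M17 at 7.19 in sfr6-2 and 6.78 in sfr6-3, and the Col-0 arrays were far apart. The Col-0 of the sfr6-2 experiment read 5.98 for BCAT4 and 4.38 for M17, and that of the sfr6-3 experiment read 9.57 and 8.33.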

How the results depend on the processing

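The counts of 258 lower and 120 higher genes stayed within 1.5 times of these values under quantile normalization (276 and 97), cyclic loess normalization (297 and 90), median centring (276 and 103), raised dim values (222 and 90) and every probe set (260 and 121). Adding the 20th percentile of the linear values gave 216 and 78. With no filter they were 1434 and 1701, with the 60th percentile filter 169 and 37, at 1.5-fold 609 and 666, and at 3-fold 100 and 14. Lower genes thus outnumbered higher ones at 2-fold, 3-fold and with the 60th percentile filter, while higher genes outnumbered lower ones at 1.5-fold and with no filter; the cause was not tested. The median ratio of all genes was 0.08 as deposited, 0.05 after quantile normalization, 0.01 after cyclic loess and 0.04 after median centring. With the Col-0 seedlings of sfr6-3 as control the counts were 567 and 473, and 4 of the 77 named genes at 2-fold changed direction: BGLU25 at 0.10, LEA4-5 at 0.27, BCAT4 at -1.62 and M17 at -1.14. Of the 77, 54 stayed at 2-fold with that control and 69 after cyclic loess normalization. Each group has 1 array, so none could be left out. No paired analysis was possible because the result comes from no test.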
